A study of Mus musculus with 4 samples.

Results

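The genes described here mark or control the naive and primed states of pluripotency. They are Esrrb, Zfp42, Tfcp2l1, Tbx3, Fgf4, Klf5, Dppa2, Dppa4, Fgf5 and Otx2. They were chosen by name, with earlier results of these data known. All 10 were found among the 24873 genes of the deposited table. RNA-Seq was carried out on 2 control and 2 tamoxifen libraries, each made from cerebral cells pooled from 3 mice of mixed sexes. Every mouse carried Cdh5cre;Mgpflox/flox, that is, a tamoxifen-activated Cre recombinase under the VE-cadherin (Cdh5) promoter, which is active in endothelial cells (ECs), and both copies of Mgp, the gene of matrix Gla protein, flanked by recombination sites. The tamoxifen group was 10 weeks old when injections of 75 mg/kg tamoxifen began, which were given on 5 days in a row, and cells were taken on day 9. The control group carried the same alleles and was given no tamoxifen, so exposure to the drug, activity of the recombinase and deletion of Mgp cannot be told apart. The methods describe the cells as CD31+CD45-, whereas the labels call them brain cells positive for tdTomato, a red fluorescent reporter.

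Naive pluripotency is the state of the inner cell mass before implantation and of mouse embryonic stem cells kept with LIF, a cytokine that acts through STAT3. Esrrb, Zfp42 (also known as Rex1), Tfcp2l1, Tbx3 and Klf5 encode transcription factors of that state, and Dppa2 and Dppa4 encode a pair of chromatin proteins that act together. FGF4, secreted by naive cells, acts through FGF receptors and ERK and moves them towards the primed state of the epiblast after implantation, of which Fgf5 and the homeobox factor Otx2 are markers. Outside the embryo some of these genes have other uses. Otx2 is expressed in the choroid plexus and pituitary, Tbx3 in several adult cell types, and Klf5 in dividing epithelium.

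RefSeq start-site sequences (GRCm38.p6) were matched for 6 of the 10 genes, whereas Tbx3, Klf5, Dppa2 and Dppa4 had no entry. Each window runs from 250 bases before the start of transcription to 50 bases after it, on the strand of the gene. Zfp42 and Fgf4 are shown because they differed most between the groups, by rank of log2 fold change as estimated below. Fgf5 is shown because it was near its detection limit. Capitals mark matches on either strand to the octamer ATTTGCAT, the KLF element GGGTGTGG, the GC box GGGCGG and the TATA element TATAAA. Neighbouring capitals can belong to overlapping matches.
Zfp42, chr8:43306960-43307259, minus strand: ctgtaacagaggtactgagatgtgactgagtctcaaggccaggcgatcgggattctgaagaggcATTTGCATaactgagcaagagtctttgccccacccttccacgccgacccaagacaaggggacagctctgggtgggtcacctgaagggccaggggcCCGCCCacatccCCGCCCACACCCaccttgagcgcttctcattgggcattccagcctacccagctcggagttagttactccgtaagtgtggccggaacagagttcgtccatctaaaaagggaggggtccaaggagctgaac
Fgf4, chr7:144861136-144861435, plus strand: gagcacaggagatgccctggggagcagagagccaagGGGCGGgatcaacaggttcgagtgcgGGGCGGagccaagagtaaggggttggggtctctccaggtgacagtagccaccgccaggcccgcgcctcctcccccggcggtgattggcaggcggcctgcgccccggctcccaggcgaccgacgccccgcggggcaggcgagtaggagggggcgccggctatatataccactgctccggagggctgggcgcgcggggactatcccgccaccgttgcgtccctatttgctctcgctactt
Fgf5, chr5:98253934-98254233, plus strand: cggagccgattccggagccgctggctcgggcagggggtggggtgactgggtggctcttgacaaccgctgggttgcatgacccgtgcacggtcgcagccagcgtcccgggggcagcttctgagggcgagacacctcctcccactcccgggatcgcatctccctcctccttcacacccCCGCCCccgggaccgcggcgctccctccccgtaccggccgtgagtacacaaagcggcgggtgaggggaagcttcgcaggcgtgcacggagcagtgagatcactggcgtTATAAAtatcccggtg
The Zfp42 window held the octamer, which begins 186 bases before the start, besides 1 KLF element and 2 GC boxes on the opposite strand, one of which overlaps the KLF element. Of all 32851 windows in the table, 1.74% held the octamer, 3.56% the KLF element and 35.7% a GC box. The Fgf4 window held 2 GC boxes. The Fgf5 window held 1 GC box, and a TATA element that begins 34 bases after the start. A TATA element, present in 13.6% of windows, also began 28 bases before the start of Tfcp2l1. The windows of Fgf5, Fgf4 and Tfcp2l1 held 29, 28 and 21 CpG dinucleotides, against 11 in that of Zfp42, 7 in each of 2 windows of Esrrb and a median of 7 over all windows (quartiles 3 and 20). The element TCAAGGTCA, bound by ESRRB, and the E-box CACGTG were searched as well, and were in 0.423% and 7.15% of all windows and in none of the windows of these 6 genes. A match here is a description of letters, not a binding site.

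The values are read counts that the authors divided by 1 factor per library, called normalized counts below. Each library had between 35387438 and 49799321 reads on genes, and 3 reads, taken as the limit that a count of 0 allows, correspond to 3.75 to 4.11 normalized counts in the controls and 2.16 to 3.25 in the tamoxifen libraries. This limit covers counting error only. Fold changes were estimated with limma on log2(normalized count + 1), a scale on which the change of low genes depends on the 1 added. A gene was called at a Benjamini-Hochberg (BH) adjusted p under 0.05 together with an absolute log2 fold change over 1. Of the 20485 genes tested, whose normalized counts averaged 10 or more over the libraries, 44.7% were called, 28.6% higher and 16.0% lower with tamoxifen. With 2 libraries per group an exact permutation test of a single gene cannot go below p = 0.333, and the p-values of limma lean on the spread of all genes.

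Libraries of the tamoxifen group differed from the controls in much besides these genes. The targeted gene Mgp was at 1094 and 1352 normalized counts in the controls and at 945 and 909 with tamoxifen, a log2 fold change of -0.39 (SE 0.182) that was not called (limma adjusted p = 0.0986), and the sources used here do not say which exons the recombination sites flank. The endothelial markers Cdh5 and Pecam1 were each lower with tamoxifen (log2 fold changes of -2.84 and -2.85), as were all 8 endothelial genes listed, of which Kdr and Eng were the most abundant (-2.75 and -2.95). Ptprc, which encodes the CD45 used to sort cells out, was at 50.7 and 83.9 in the controls and at 1423 and 1119 with tamoxifen. All 7 neutrophil genes (most abundant S100a9 and Ngp), all 8 cell cycle genes (Mki67 and Top2a), all 6 astrocyte genes (Slc1a2 and Slc1a3) and all 6 fibroblast genes (Col1a1 and Col1a2) were called higher, as were 5 of 7 neuron genes (Tubb3 and Gad1) and 2 of 8 pericyte and smooth muscle genes (Rgs5 and Pdgfrb, not called). Without tamoxifen library 1 or 2, the calls fell to 4 and 2 for astrocyte and to 4 and 3 for neuron genes. The pericyte and smooth muscle calls fell to 0 without control library 1 or either tamoxifen library, and came to 5 without control library 2. The fibroblast gene Lum was not called without either tamoxifen library. The neutrophil genes Mpo and Elane had control means under 10 and passed the filter only through the tamoxifen libraries. What part these differences between the groups have in the values below was not tested.

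Of the 10 genes, 8 were called higher with tamoxifen, Tbx3 was called lower, and Fgf5 had too few reads to be tested. The groups did not overlap for any of the 10, with tamoxifen higher in 9, against 82.3% of tested genes without overlap in either direction and 43.1% with tamoxifen higher. Of the 9 genes tested, Zfp42, Fgf4 and Dppa2 passed the filter on low values only through the tamoxifen libraries, since their control means were under 10. The largest log2 fold changes ranked high in the table, with Fgf4 at 11, Zfp42 at 17, Esrrb at 36 and Dppa2 at 64 of 20485, whereas Dppa4 ranked 1280.

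**Figure D1:**
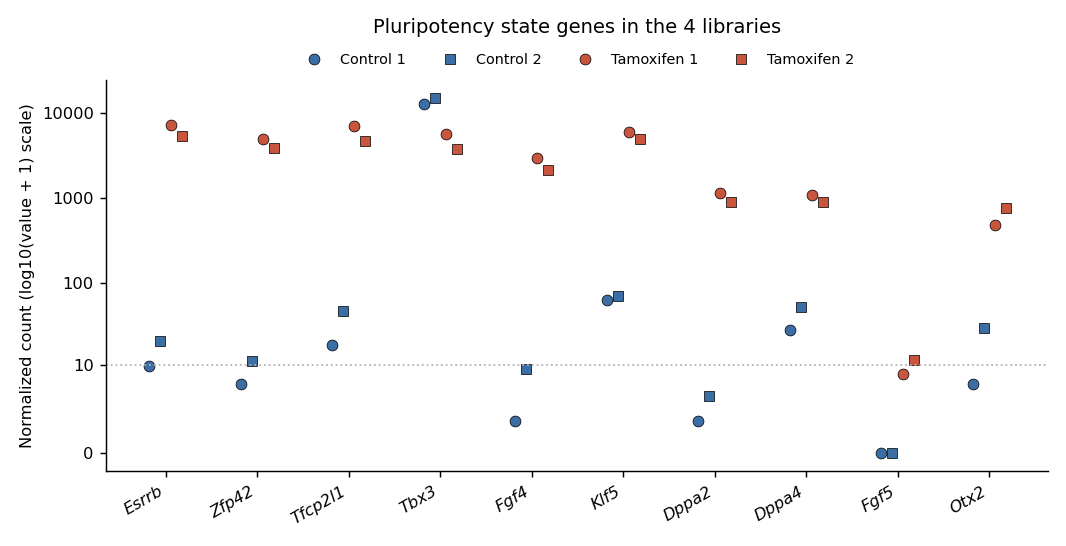
Normalized counts of the 10 genes in each library, with log10(value + 1) on the y axis. Blue points are control and red points tamoxifen libraries, circles are library 1 and squares library 2, and the dotted line marks 10 normalized counts. Red points lie above blue ones for 9 genes, while Tbx3 has 12641 and 15069 in the controls and 5703 and 3726 with tamoxifen.

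Among the naive transcription factors, Esrrb, Zfp42 and Tfcp2l1 differed by more than the other transcription factors. Esrrb, an orphan nuclear receptor (chr12:86407887-86568409 on GRCm39, plus strand), was at 9.59 and 20.0 in the controls and at 7208 and 5349 with tamoxifen, a log2 fold change of 8.70 (SE 0.372, limma adjusted p = 6.06e-06). Both tamoxifen libraries lay far above both controls, which held 7 and 16 reads. Zfp42, a zinc finger gene (chr8:43743871-43760152, minus strand) whose start-site window is shown above, had 5.48 and 11.3 in the controls against 4916 and 3875, a log2 fold change of 8.94 (SE 0.390, adjusted p = 6.35e-06 by limma). These control values rest on 4 and 9 reads, so the ratio of pooled reads of 505 has a 95% counting interval of 295 to 948. Tfcp2l1 (chr1:118555636-118612915, plus strand), a factor downstream of LIF and STAT3, was at 17.8 and 46.3 in the controls and at 7009 and 4626 with tamoxifen, a log2 fold change of 7.58 (SE 0.434, limma adjusted p = 1.47e-05).

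Klf5 (chr14:99536086-99552473, plus strand), a Krüppel-like factor, was the most evenly measured of the genes. Its values were 63.0 and 70.1 in the controls and 5959 and 4990 with tamoxifen, which is 82.3-fold by the group means, with a log2 fold change of 6.34 (SE 0.207, limma adjusted p = 3.32e-06). Its libraries differed by 1.11-fold within the controls and by 1.19-fold within the tamoxifen group, and the groups were far apart.

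Tbx3 (chr5:119806298-119822797, plus strand), a T-box factor listed with the naive state, was the exception. It was at 12641 and 15069 normalized counts in the controls and at 5703 and 3726 with tamoxifen. Control means were 2.94-fold above tamoxifen means, with a log2 fold change of -1.58 (SE 0.230, limma adjusted p = 0.000734). It was the only one of the 10 genes with a control mean over 100. Its ratio of tamoxifen library 1 to library 2 was 1.53, beside 1.91 for the summed endothelial genes, which were lower in library 2 as well. Such a ratio was not particular to them, since Tfcp2l1, called higher, had 1.52 and the summed neutrophil genes 1.34. The part of the endothelial genes in the Tbx3 values was not tested. In pooled bulk RNA, fewer cells that express Tbx3 and less of its RNA per cell cannot be told apart. When every library was rescaled to the same total the log2 fold change was -1.11 and under quantile normalization it was -1.08, both still called, while the median over all tested genes moved from 0.05 to 0.52 and -0.20. Antisense RNAs overlap the locus, and Tbx3os1 had 527 and 611 in the controls against 526 and 673, so that it did not follow Tbx3. Reads of the opposite strands are told apart only if the counting used strand, which is not given in the sources used here.

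Dppa2 and Dppa4 lie side by side on chromosome 16, with 9.2 kb between them and both on the plus strand. Dppa2 (chr16:48124105-48140618) was at 1.37 and 3.75 in the controls, which is 1 and 3 reads, and at 1155 and 905 with tamoxifen. The ratio of pooled reads was 384 with a 95% counting interval of 149.8 to 1411, and the limma log2 fold change was 8.25 (SE 0.531, adjusted p = 2.46e-05). Dppa4 (chr16:48104062-48114896) was at 27.4 and 51.3 in the controls and at 1096 and 891 with tamoxifen, a 25.2-fold difference of means and a log2 fold change of 4.68 (SE 0.382, limma adjusted p = 6.39e-05). With tamoxifen the 2 genes thus had similar counts in each library, and their log2 fold changes differed mainly through the controls, where Dppa4 had 20 and 41 reads.

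The FGF ligands stood at opposite ends of the range. Fgf4 (chr7:144401104-144418985, plus strand) was at 1.37 and 8.76 in the controls, from 1 and 7 reads, and at 2941 and 2128 with tamoxifen, with a log2 fold change of 9.02 (SE 0.653, limma adjusted p = 3.99e-05). The ratio of pooled reads was 469 (95% counting interval 238 to 1086). Fgf5 (chr5:98401780-98452320, plus strand), the classical marker of the primed epiblast, had 0 reads in both controls and 7 and 16 reads with tamoxifen, or 7.59 and 11.5 normalized counts. Set against 3 reads per control library, Fgf5 was at least 2.43-fold higher with tamoxifen. Its mean was under the filter of 10. With no filter Fgf5 was called, and so all 10 genes were, beside 10014 of all 24873 genes. That call of Fgf5 rests on 7 and 16 reads against 0 and depends on the 1 added.

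Otx2 (chr14:48894099-48911276, minus strand) had the largest SE of the genes tested. It was at 5.48 and 28.8 in the controls and at 483 and 769 with tamoxifen. The groups did not overlap and the log2 fold change was 5.46 (SE 0.710, limma adjusted p = 0.00043), but the controls differed by 5.25-fold. Without tamoxifen library 1 the adjusted p rose to 0.0787 at a log2 fold change of 5.79, and without library 2 to 0.0975 at 5.12, so the call was lost in each case. The 8 choroid plexus genes, of which 6 were called higher, summed to 6910 and 9717 in the controls and to 24049 and 75287 with tamoxifen, none of them at 0. The most abundant were Ttr and Enpp2, and Enpp2 was not called. The defining genes Ttr, the thyroid hormone carrier transthyretin, and Kcnj13, a potassium channel gene, were at 793 and 3108 and at 27.4 and 7.51 in the controls, against 7069.6 and 41530.0 and 14.1 and 77.6 with tamoxifen. Kcnj13 was not called (limma adjusted p = 0.317) and its groups overlapped. Without tamoxifen library 1 the choroid plexus genes called higher fell to 3 and without library 2 to 1, and the call of Ttr was lost in each case. The 8 pituitary genes summed to 13559 and 38023 in the controls and to 131 and 104 with tamoxifen, all called lower, with Pomc and Gh the most abundant. The pituitary calls fell to 6 without tamoxifen library 1 and to 5 without library 2. Their part in the Otx2 values was not tested. The antisense RNA Otx2os1 was at 0 and 2.50 in the controls and 13.0 and 18.7 with tamoxifen, within the limit on strand given for Tbx3.

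Per kilobase of the canonical transcript, the order with tamoxifen was Zfp42 (mean 2305), Klf5 (1613), Esrrb (1493), Tbx3 (915), Fgf4 (806), Tfcp2l1 (624), Dppa4 (553), Dppa2 (328), Otx2 (191) and Fgf5 (3.45). Library ranges overlapped between Klf5 and Esrrb, between Tbx3 and Fgf4, between Fgf4 and Tfcp2l1 and between Tfcp2l1 and Dppa4, so these neighbours did not separate. In the controls Tbx3 was at 2690 per kilobase and the next were Dppa4 at 21.9 and Klf5 at 19.6, with the others at 5.23 or less. The order depended on the transcript model: per kilobase of merged exons Klf5 (1044) and Esrrb (1036) led with tamoxifen and Zfp42 fell to 404.

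The tamoxifen libraries also differed from each other. All 7 called genes other than Otx2 and Tbx3 were higher in library 1, by 1.19-fold for Klf5 to 1.52-fold for Tfcp2l1, and Tbx3 had a similar ratio. Fgf5 and Otx2, the primed markers, went the other way, with library 2 over library 1 at 1.52 on 7 and 16 reads and at 1.59. Most other formative and primed genes, described below, did not share this direction. Of the 13 tested, 9 were higher in library 1, with a median ratio of library 1 to library 2 of 1.15. Over all tested genes the ratio of library 1 to library 2 had a median of 1.06 (quartiles 0.813 and 1.22), and over all genes called higher a median of 1.02. The summed neutrophil genes had a ratio of 1.34 and the cell cycle genes of 1.04. Choroid plexus, astrocyte and neuron genes had more in library 2, by 3.13-fold, 2.12-fold and 1.68-fold in their sums. This comparison of 2 libraries has no replicate, and its relation to the values of these genes was not tested. In the controls, all 9 genes with any reads were higher in library 2, from 1.11-fold for Klf5 to 6.40-fold for Fgf4.

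**Figure D2:**
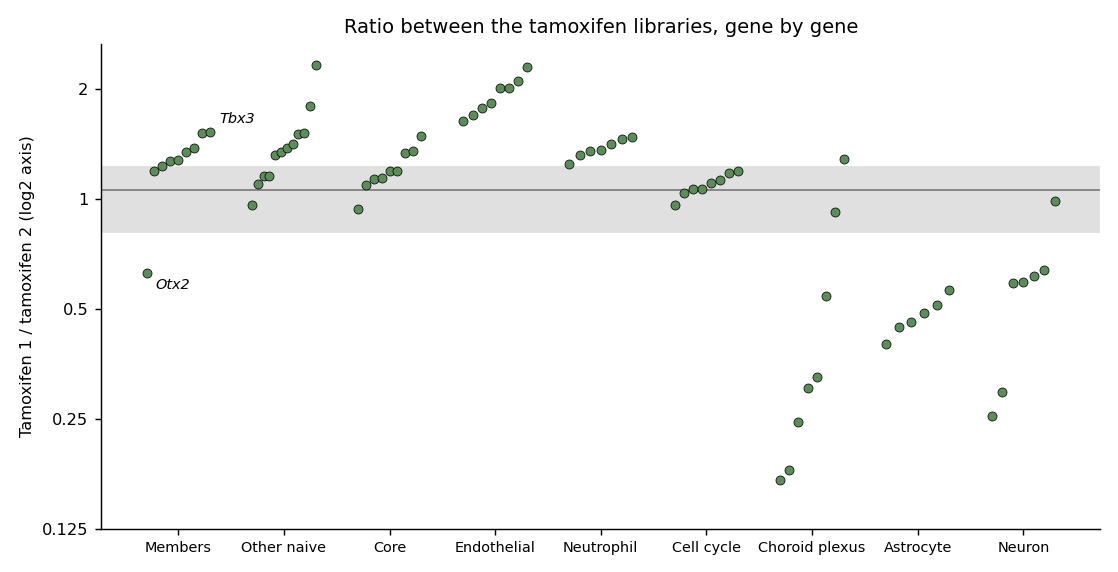
Ratio of tamoxifen library 1 to library 2 on a log2 axis, with 1 point per tested gene of each list and the 9 tested genes described here under Members. The grey line and band are the median (1.06) and quartiles of all tested genes. Otx2 (0.628) lies apart from the others (1.19 to 1.53), on the side of the choroid plexus, astrocyte and neuron genes.

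Other genes of the same states were taken from lists written with earlier results of these data known. Of 12 further naive genes, 9 were called higher, Klf2 and Klf4 were called lower and 1 was not called, with a median log2 fold change of 5.89, or 4.90 with genes at 0 in the controls set to their lower bound, against 0.05 for all tested genes. Of all tested genes 28.6% were called higher and 16.0% lower. Among the further naive genes the largest were Fbxo15 at 8.79, Nr0b1 at 8.53 and Dppa5a at 8.51. Nr0b1, Dppa3, Fbxo15, Prdm14 and Tcl1 had control means under 10 and passed the filter only through the tamoxifen libraries. Nr0b1 and Dppa3 had 0 reads in both controls and were at least 94.0-fold and 15.3-fold higher with tamoxifen. Klf2 and Klf4, Krüppel-like factors that ECs also express in response to flow, had log2 fold changes of -2.34 and -1.49, on the side of Tbx3, and Klf4 at -0.87 was not called under quantile normalization, nor at -1.07 without tamoxifen library 2 (limma adjusted p = 0.0516). Tet2, a DNA demethylase, was not called at 0.20, and Prdm14 (6.93) was not called without either tamoxifen library. Of 10 core pluripotency genes 9 were in the table and all 9 were called higher, while Dppa1 was not among the genes listed. The largest were Sall4 (9.77), Nanog (9.50) and Trim71 (9.32). Sall4, Nanog, Trim71, Lin28a and Utf1 also had control means under 10, so only the tamoxifen libraries carried them past the filter.

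Of 15 further genes of the formative and primed states, 13 were tested, 9 were called higher and 2 lower, with a median log2 fold change of 3.44. The Nodal antagonists Lefty2 and Lefty1 were at 8.93 and 8.83, and Foxd3 was at 6.84. Lefty1, Lefty2, Foxd3, Pou3f1, Sox3 and Eomes had control means under 10 and passed the filter only through the tamoxifen libraries. Lefty1 and Nodal (2.92) were not called without either tamoxifen library, nor was Eomes (5.88) without library 2. Lef1, a nuclear partner of β-catenin that brain ECs express, and Zic2, a zinc finger factor, had log2 fold changes of -2.74 and -2.22 and were the 2 called lower. The methyltransferase gene Dnmt3a at 0.24 and the mesoderm gene T (Brachyury) at 0.37 were not called, and T turned to -0.50, still not called, under quantile normalization. Cer1 and Fgf8 were under the filter, Cer1 with 1.37 and 0 in the controls against 1.08 and 7.19, and Fgf8 with 0 in both against 4.34 and 2.88, which gives no fold against 3 reads per control library.

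**Figure D3:**
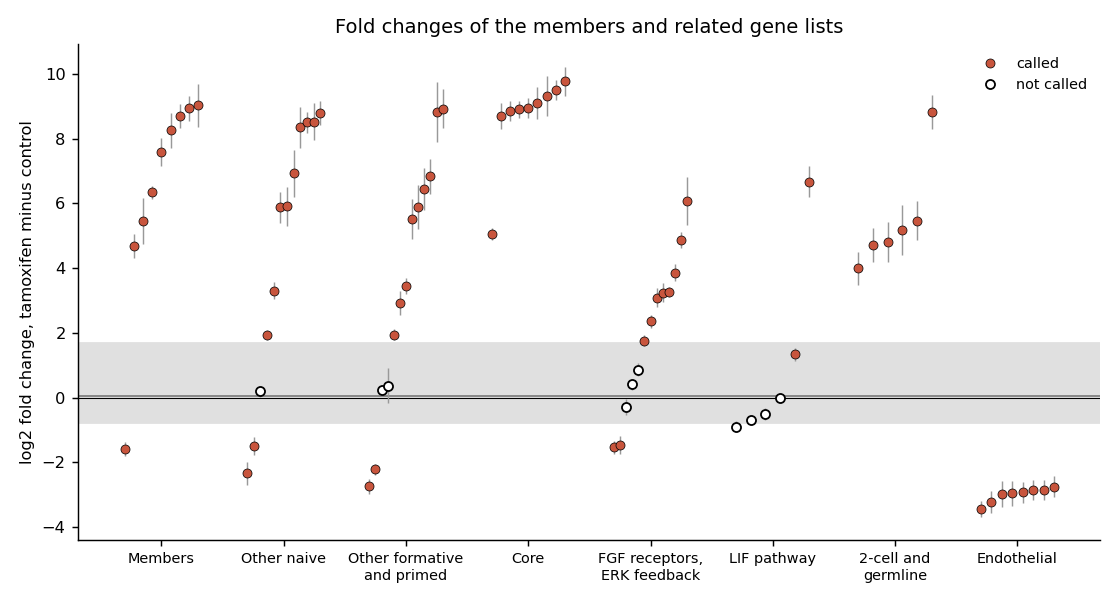
log2 fold change of each tested gene by list, tamoxifen minus control, with bars of 1 SE and the 9 tested genes described here under Members. Filled points were called and open points were not, and the grey line and band are the median (0.05) and quartiles of all tested genes. Tbx3 (-1.58), Klf2, Klf4, Lef1 and Zic2 lie below 0, as do some FGF and LIF pathway genes. None of them is as low as the endothelial genes (-3.43 to -2.75), though Lef1 (-2.74) comes close.

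The pathways around these genes were mixed. Of 13 FGF receptor and ERK feedback genes 8 were called higher, 2 lower and 3 were not called, with a median log2 fold change of 2.36. The receptor gene Fgfr4 at 6.07, the ETS factor gene Etv4 at 4.86 and the phosphatase gene Dusp4 at 3.86 were the largest. Dusp6, which encodes an ERK phosphatase, and Spry1, a feedback inhibitor, had log2 fold changes of -1.46 and -1.54, but neither was called without either tamoxifen library, Dusp6 was not called after rescaling to equal totals (-0.99), and Fgfr4 was not called without either tamoxifen library. Egr1, an immediate ERK target, had a log2 fold change of -0.28 that was not called and turned positive under both other scalings. Of 6 LIF pathway genes, Lif at 6.67 and Socs3 at 1.34 were called higher, Socs3 not without either tamoxifen library. The receptor genes Il6st at -0.89 and Lifr at -0.68, with Stat3 at -0.50 and Jak1 at -0.02, were not called, and the last 2 changed sign with the scaling. Il6st, Lifr and Stat3 missed the call by fold change alone, with limma adjusted p of 0.0038, 0.00835 and 0.045. Among genes that depend on DPPA2 and DPPA4 in embryonic cells, 9 of 12 were in the table and all 6 tested were called higher. Of all tested genes 28.6% were called higher. All of these 6 but Ddx4, and Fgfr4 and Lif above, had control means under 10. They passed the filter only through the tamoxifen libraries. Dazl, an RNA-binding protein of germ cells, was at 8.82, the 2-cell stage gene Zscan4d at 5.47 and Sycp3, of the meiotic synaptonemal complex, at 5.18. Without tamoxifen library 1, and likewise without library 2, 3 of the 6 were called, and Sycp3, Mael and Ddx4 were lost. Zscan4d had 0 reads in both controls and was at least 11.0-fold higher, and it belongs to a family of near-identical copies whose reads may be split between them. Zscan4c, Zscan4f and Zfp352 were under the filter, with 0 in both controls and at most 28.0 normalized counts with tamoxifen, and Duxf3, Tcstv1 and Tcstv3 were not among the genes listed.

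The genes next to them on the chromosome went in both directions. Of 18 distinct protein-coding neighbours 15 were tested, of which 6 were called higher, 4 lower and 5 were not called. Over all tested genes 28.6% were called higher and 16.0% lower. Of the neighbours called higher, all but Gli2 had control means under 10 and passed the filter only through the tamoxifen libraries. Fgf4 lies between Fgf3, 2.9 kb away, and Fgf15, 31.3 kb away, and these other FGF ligands were called higher as well. Fgf3 had 1.37 and 0 in the controls against 165.8 and 121 (log2 fold change 6.54), and Fgf15 had 0 in both against 163 and 109.99 (7.07), at least 34.7-fold higher. Around Fgf5, Prdm8 was at 8.22 and 1.25 in the controls against 48.8 and 164.6 and Cfap299 at 0 in both against 47.7 and 86.3, so both neighbours of this weakly detected gene were called higher with log2 fold changes of 4.32 and 6.03. Cfap299 was at least 17.0-fold higher, and Prdm8 was not called without either tamoxifen library. Triml2, 96.9 kb from Zfp42, had 2.74 and 2.50 in the controls and 2138 and 1705 with tamoxifen, a log2 fold change of 9.04 beside the 8.94 of Zfp42, and Gli2, the Hedgehog factor gene 148.9 kb from Tfcp2l1, had 5.97. By contrast Clasp1, 15.0 kb on the other side of Tfcp2l1, was at 0.06 and not called, as was Nectin3 before Dppa4 at 0.08, and both values took either sign over the alternatives. Vash1 beside Esrrb, Klf12 beside Klf5, and Tmem260 and Exoc5 on the sides of Otx2 were called lower, at -1.43, -1.39, -1.16 and -1.04. None of these 4 was called after rescaling to equal totals, where they were at -0.96, -0.92, -0.69 and -0.57, and 1 of them was called without tamoxifen library 1 and 2 without library 2. Exoc5 was also not called under quantile normalization or without control library 1. Gpatch2l beside Esrrb (-0.60), Pibf1 beside Klf5 (-0.32) and Med13l beside Tbx3 (-0.20) were not called, and those of Pibf1 and Med13l turned positive with equal totals. The other nearest genes, Adam26b, Tbx5 and Gm5485, were not among the genes listed.

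**Figure D4:**
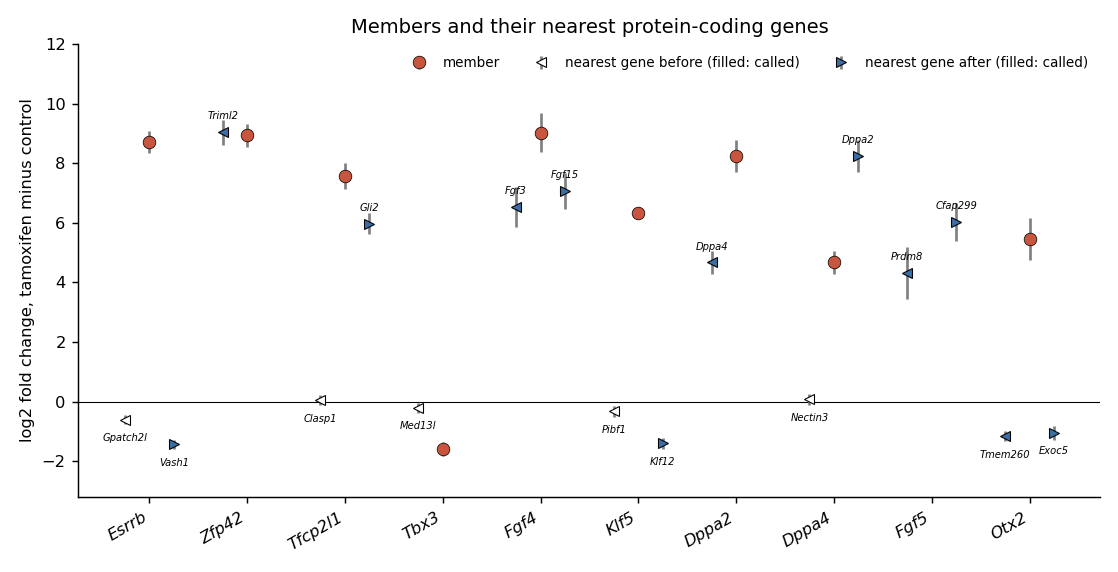
log2 fold change, tamoxifen minus control, of the 9 tested genes (red circles) and of the nearest protein-coding gene on each side that was listed (triangles, filled where called), with bars of 1 SE. Fgf3 and Fgf15 beside Fgf4, and Triml2 beside Zfp42, lie with their neighbour, whereas both genes beside Otx2 lie below 0.

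By Euclidean distance of log2(normalized count + 1) over the 4 libraries, the nearest tested gene to Esrrb was Pou5f1 (Oct4, 0.72), followed by Dppa5a and Prg2. Dppa2 was nearest to Gdf3 (0.36), Cstdc4 and Gata4, and Fgf4 to Slpi (0.66), Mmp3 and Dusp9. Zfp42 was nearest to Il1rl1 (0.40), Mpo and Prg2, of which Mpo and Prg2 encode granule proteins of neutrophils and eosinophils. Klf5 was nearest to Ube2c (0.23), Hk2 and Ccnf, and Tfcp2l1 to Ctse (0.76), Ccnb2 and Rps3a3, with Ube2c, Ccnf and Ccnb2 being genes of the cell cycle. Dppa4 was nearest to Bex1 (0.23), Csf3r and Gm10036, Otx2 to Mybpc1 (0.62), Car12 and Slc35g1, and Tbx3 to Csrp2 (0.16), Mapk3 and Niban2. With only 4 libraries in 2 groups these distances describe levels, and genes of pluripotency, blood and the cell cycle had like levels.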

How the data were processed

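RNA was measured in 4 libraries in 2 groups, named by the labels. Columns carry C and A with a number. A was read as the treated group, although the labels give no A. Per the submitters' notes and the methods, STAR 2.7.10a aligned the reads to GRCm39, and the authors left out genes with low counts. The deposited signal of a gene is its read count after the authors' normalization with DESeq2 1.36.0. Annotation release, strand setting and low-count limit are not given in the sources used here. Whole reads were recovered for 100% of values (tolerance 0.01 reads).

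limma 3.58.1 (lmFit, eBayes with trend) in R 4.3.3 was run on log2(normalized count + 1), keeping genes whose mean reached 10, with BH adjustment over all of them. Group levels come from 2 libraries each, of 3 pooled mice. On recovered reads, DESeq2 1.42.0 and edgeR 4.0.16 were run as alternatives. The others were a pseudocount of 0.5 or 5, a filter at 100 or none, equal totals, quantile normalization, a block for the replicate number, and each library left out. Locations came from GENCODE M39, transcript lengths included, and sequences from RefSeq. The script was tested on simulated data. Genes named are the 10 genes, up to 3 genes of largest change in each related list, those against its direction or not measured, those of highest mean in a cell type list, neighbours and the 3 nearest genes by level. Outside this rule, Mgp, Cdh5, Pecam1, Ptprc, Kcnj13, Dnmt3a, T, Tet2, Lifr, Stat3 and Jak1 were named after their values were seen. So were the list genes named for a lost call or for a control mean under 10. The 10 genes and all lists were chosen with earlier results of these data known.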

Additional observations from a re-analysis of the deposited data

How the results depend on the processing

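Another filter or the replicate block leaves the fold changes as they are, so direction could not change under these alternatives. Over all 13 alternatives, 115 of 117 fold changes of the tested genes kept their direction and call, and 0 reversed. The other 2 are those of Otx2 without a tamoxifen library, after which 8 genes were called rather than 9. Genes called in the whole table numbered 9151, and 5934 with a filter at 100, where fewer genes were tested. Leaving out 1 library gave 4147 to 9700, with 5024 without tamoxifen library 1 and 4147 without library 2, where 1 tamoxifen library is assumed to vary like the controls. edgeR called 9241 and DESeq2 8739 genes. Of the calls 64.1% were higher, 79.7% with equal totals and 47.2% under quantile normalization. Same-numbered libraries did not deviate together (r = 0.025 over 20485 genes), which with 2 libraries per group cannot exclude a pairing. With the replicate block 9525 genes were called and 9 of the 9 tested here. With 2 pooled libraries per group, the spread between single mice was not measured. Control values of Fgf4, Dppa2 and Fgf5 rest on at most 7 reads per library, so their fold changes are loosely bounded.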

Other observations

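Genes of the other early lineages, which naive cells keep low, moved unevenly. Of 8 primitive endoderm genes 5 were called higher and 3 lower. Of those called higher, all but Gata6 had control means under 10 and passed the filter only through the tamoxifen libraries. Gata4, a zinc finger factor of that lineage, was at 1.37 and 2.50 normalized counts in the controls and at 1356 and 1001 with tamoxifen, a log2 fold change of 8.66. Sox17, Sox7 and Dab2, which ECs also express, were at -2.93, -2.08 and -1.34, and the 5 called higher fell to 2 without either tamoxifen library (Gata6, Foxa2 and Afp were lost). Dab2 was not called with equal totals (-0.87) or under quantile normalization (-0.78). Of 8 trophoblast genes 7 were tested and 5 called higher, with Tfap2c at 8.65, Hand1 at 5.93 and Krt8 at 4.34. Without tamoxifen library 1, and likewise without library 2, 2 of them were called, and Krt8, Krt18 and Elf5 were lost. Elf5 was also lost with a pseudocount of 0.5, no filter, quantile normalization, edgeR, DESeq2 and without control library 1. Hand1 had 0 reads in both controls and was at least 15.3-fold higher. Tfap2c, Hand1 and Elf5 had control means under 10, so they too passed the filter only through the tamoxifen libraries. Gata3 at -0.16 was not called, but under quantile normalization it was called lower at -1.32. It turned positive with equal totals (0.31) and without tamoxifen library 2 (0.07). Cdx2, under the filter, had 0 in both controls against 9.75 and 27.3 with tamoxifen.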
